A study of Mus musculus with 19 samples.

Results

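The miR-17/92a and miR-106b-25 clusters are a pair of short stretches of mouse DNA, each of which gives rise to several mature miRNAs. Their 9 guide-strand members were taken by name: mmu-miR-17-5p, mmu-miR-18a-5p, mmu-miR-19a-3p, mmu-miR-20a-5p, mmu-miR-19b-3p and mmu-miR-92a-3p from miR-17/92a, and mmu-miR-106b-5p, mmu-miR-93-5p and mmu-miR-25-3p from miR-106b-25. All 9 were on the array, which carried 1136 miRNAs, 1079 of them mouse. Total RNA was hybridized to 19 one-colour Agilent miRNA arrays from 8 male mice that were 9 weeks old and had been housed singly for 1 week with a locked running wheel. The only agent named was isoflurane, given as an anesthetic before the mice were killed. The nucleus accumbens, the reward center of the brain, was measured in 4 mice of the C57L/J strain, called high-active, and 3 of the C3H/HeJ strain, called low-active, the soleus, a slow leg muscle, in 4 high-active and 2 low-active mice, and the extensor digitorum longus (EDL), a fast leg muscle, in 2 high-active and 4 low-active mice. The strains are inbred lines that differ across the whole genome, so that activity level and every other strain trait cannot be told apart.

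In such a polycistronic cluster the hairpins are cut from a single primary transcript, so its mature members start out in equal number, and processing, stability and further gene copies can then set them apart. The miR-17/92a cluster, also written with a hyphen between its first and last member and called Oncomir-1, is known for promoting cell proliferation and survival, as targets of its members include Bim and Cdkn1a. The miR-106b-25 cluster lies inside an intron of Mcm7, which encodes a part of the helicase that opens DNA for replication, and has been studied in the proliferation of neural stem cells. A miRNA recognises its targets mainly through its seed, bases 2 to 8, and members with the same seed share most predicted targets.

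The members are shown here because they fall into 4 seed groups that cut across the clusters. RefSeq (GRCm38.p6) gave a mature sequence for 9 of the 9 members, written 5′ to 3′ with the seed in capitals. In miR-17/92a (chr14:115043671-115044506, plus strand, 836 bases, 6 hairpins) the order along the transcript is:
mmu-miR-17-5p: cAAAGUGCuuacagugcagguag
mmu-miR-18a-5p: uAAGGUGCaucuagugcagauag
mmu-miR-19a-3p: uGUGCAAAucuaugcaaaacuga
mmu-miR-20a-5p: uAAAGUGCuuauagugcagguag
mmu-miR-19b-3p: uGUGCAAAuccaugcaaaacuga
mmu-miR-92a-3p: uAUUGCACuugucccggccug
In miR-106b-25 (chr5:138165321-138165818, minus strand, 498 bases, 3 hairpins) it is:
mmu-miR-106b-5p: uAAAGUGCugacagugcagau
mmu-miR-93-5p: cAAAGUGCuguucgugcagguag
mmu-miR-25-3p: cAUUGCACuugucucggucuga

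The seed AAAGUGC was shared by 4 members, miR-17-5p and miR-20a-5p of one cluster and miR-106b-5p and miR-93-5p of the other. The seed AUUGCAC was shared by miR-92a-3p and miR-25-3p, which come from the last hairpin of each cluster. The seed GUGCAAA belonged to miR-19a-3p and miR-19b-3p, and AAGGUGC to miR-18a-5p alone. Outside the seed the members are also close: miR-17-5p and miR-20a-5p differed at 2 of 23 positions, miR-19a-3p and miR-19b-3p at 1 of 23, and miR-92a-3p and miR-25-3p at 3 of 21, counted without gaps from the 5′ end. How far the probes tell such pairs apart was not tested, and the members were not ranked by level. The sequences of miR-19b-3p and miR-92a-3p are each encoded a second time in the related miR-106a-363 cluster (chrX:52741693-52742567, minus strand), so their signal is the sum over both loci.

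The members differed widely in how well they could be measured. Signals are given on a log2 scale after each array was divided by the 75th percentile of the probes well above background on all 19 arrays, with values under a floor of 4.41 set to that floor. Of the 9 members, 6 were well above background on all 19 arrays: miR-20a-5p, miR-19b-3p, miR-92a-3p, miR-106b-5p, miR-93-5p and miR-25-3p. The other 3, all from miR-17/92a, stood near the floor. miR-17-5p was well above background on 3 of 7 nucleus accumbens arrays and 5 of 12 muscle arrays, with unscaled intensities between 9.71 and 38.9 over all arrays. miR-19a-3p was well above background on 1 of 7 nucleus accumbens arrays and 3 of 12 muscle arrays. miR-18a-5p was well above background on 1 array, that of the nucleus accumbens of high-active mouse 223, and was not tested. The low signal of these 3 does not show that the miRNAs were absent. No member's probe was saturated on any array.

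The arrays matched their tissue labels: the summed signal of 4 muscle miRNAs was 8.52 to 11.0 in the nucleus accumbens and 18.7 to 19.6 in muscle. The 11.0 was from low-active mouse 197, the only nucleus accumbens array with all 4 detected, and the next highest was 8.89. All 6 brain miRNAs, among them miR-124-3p, were well above background on each nucleus accumbens array, with a summed signal of 16.3 to 16.9. In muscle that sum was 9.72 to 11.4, and miR-128-3p was well above background on 12 of 12 arrays. The arrays came from 3 slides, each with arrays of both strains and of the brain and muscle, and detected 349 to 392 miRNAs in the nucleus accumbens and 242 to 346 in muscle.

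The first comparison asked whether the members of each cluster differed together between brain and muscle. In miR-106b-25 they did not differ in 1 direction, whereas the members of miR-17/92a that passed were both lower. In the nucleus accumbens miR-106b-5p was 1.93-fold higher than in the muscles and miR-93-5p 1.27-fold higher, whereas miR-92a-3p was 2.57-fold lower, miR-25-3p 1.70-fold lower and miR-20a-5p 1.32-fold lower. Of 8 members tested, 2 were higher and 3 lower (limma over all 19 arrays with the mouse as a random block, Benjamini-Hochberg adjusted p under 0.05 over 483 miRNAs). These counts stand against a background of 49.1% of all 483 miRNAs higher and 34.0% lower, so a call between these tissues was the rule. The median difference was -0.15 over the members and 0.21 over all 483. In bulk tissue a lower signal cannot be told apart from fewer cells of a type that carries the miRNA.

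The miR-106b-25 cluster is read from its first hairpin. miR-106b-5p, which targets the cell cycle inhibitor Cdkn1a, had a lowest, median and highest signal of 8.02, 8.34 and 8.89 in the nucleus accumbens (n = 7), against 7.11, 7.51 and 7.82 in muscle (n = 12). The tissues did not overlap, and the difference was 0.95 (SE 0.099, limma adjusted p = 2.28e-07). miR-93-5p, with the same seed, had 8.30, 8.61 and 8.86 in the nucleus accumbens and 8.01, 8.29 and 8.75 in muscle. Here the tissues overlapped, and the difference of 0.35 (SE 0.11, limma adjusted p = 0.00798) was smaller than that of miR-106b-5p. Its direction depended on the scaling: with quantile normalization miR-93-5p was lower in the nucleus accumbens by a log2 difference of -0.40 (limma adjusted p = 0.00336), and with the 75th percentile over all probes by -0.26 (limma adjusted p = 0.0798). miR-25-3p, from the last hairpin, had 8.17, 8.53 and 8.93 in the nucleus accumbens and 9.05, 9.34 and 9.69 in muscle, with no overlap. It was lower by a log2 difference of -0.76 (SE 0.098, limma adjusted p = 2.52e-06).

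In miR-17/92a the last hairpin gave the member with the largest tissue difference of the 8 tested. miR-92a-3p, which is known from endothelial cells as a brake on vessel growth, had 7.58, 8.27 and 8.38 in the nucleus accumbens and 8.96, 9.54 and 9.97 in muscle. The lowest muscle array lay above the highest nucleus accumbens array, and the difference was -1.36 (SE 0.14, limma adjusted p = 2.49e-07). miR-20a-5p, a member of the miR-17 seed group that targets the transcription factor E2f1, had 7.28, 7.50 and 8.17 in the nucleus accumbens and 7.66, 7.98 and 8.15 in muscle. The ranges overlapped, mainly through mouse 223, whose nucleus accumbens had the highest value of all, and the difference was -0.40 (SE 0.10, limma adjusted p = 0.00243). miR-19b-3p, which shares its seed with miR-19a-3p, had 7.77, 8.03 and 8.85 in the nucleus accumbens and 7.68, 8.08 and 8.90 in muscle. Its difference of -0.04 (95% interval -0.37 to 0.29, limma adjusted p = 0.822) was within the spread of the arrays, but it was lower in the nucleus accumbens by -0.64 with the 75th percentile over all probes (limma adjusted p = 0.0113) and by -0.83 with quantile normalization (limma adjusted p = 5.87e-05). For miR-17-5p and miR-19a-3p the differences were -0.15 (limma adjusted p = 0.0838) and -0.14 (limma adjusted p = 0.277), from values mostly at or near the floor. miR-17-5p passed, as lower in the nucleus accumbens, when the EDL of low-active mouse 195 (-0.24, limma adjusted p = 0.00768) or of high-active mouse 227 (-0.20, limma adjusted p = 0.0258) was left out. It also passed with the 75th percentile over all probes (-0.48, limma adjusted p = 0.0078), quantile normalization (-0.45, limma adjusted p = 0.00871), the floor at 1 (-0.37, limma adjusted p = 0.0276), the slide as a block (-0.20, limma adjusted p = 0.0286) and without slide 1 (-0.40, limma adjusted p = 0.000991).

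**Figure D1:**
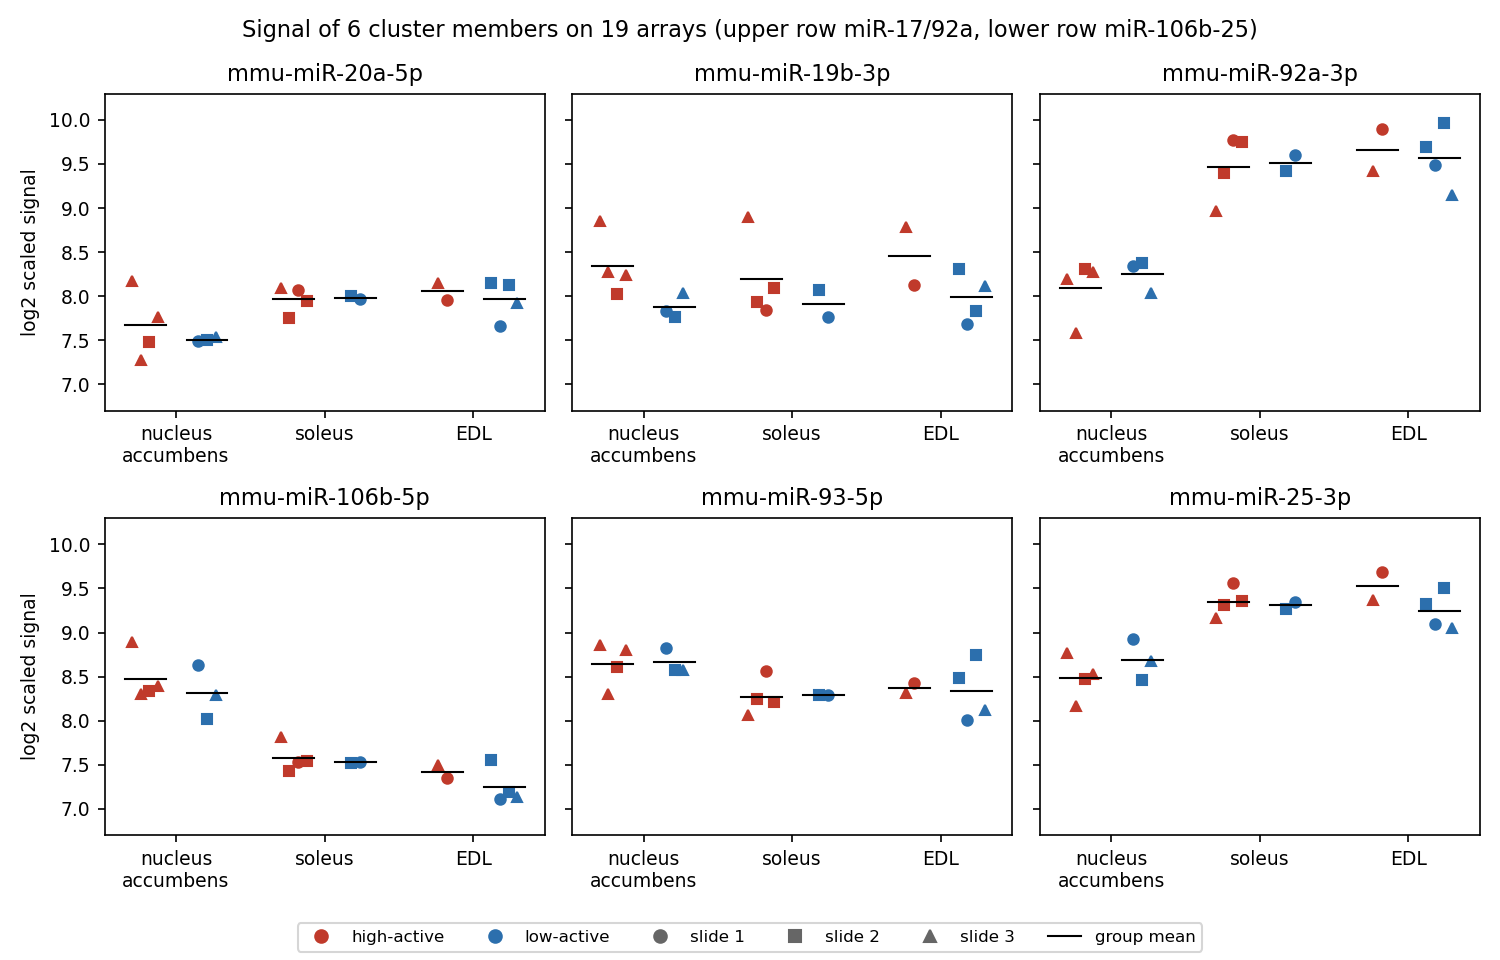
Log2 scaled signal of the 6 members measured on all 19 arrays, by tissue, with high-active mice in red left of low-active mice in blue; each point is 1 array, its shape is the slide, and black lines are group means. miR-106b-5p was above 8.0 on every nucleus accumbens array and below 7.9 on every muscle array, whereas miR-92a-3p and miR-25-3p lay higher on every muscle array.

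On the same scale the 5 differences also passed against each muscle alone. Against the soleus they were 0.84 for miR-106b-5p, 0.38 for miR-93-5p, -0.74 for miR-25-3p, -1.31 for miR-92a-3p and -0.38 for miR-20a-5p, with limma adjusted p between 3.05e-06 and 0.0133. Against the EDL they were 1.05, 0.31, -0.79, -1.42 and -0.42 in the same order, with limma adjusted p between 5.78e-07 and 0.0355. The weakest was miR-93-5p against the EDL, which did not pass when any of 6 single arrays was left out: the EDL of mice 195 (0.11, limma adjusted p = 0.378), 197, 225 or 227, or the nucleus accumbens of mice 194 or 227. Both comparisons share the nucleus accumbens arrays, so they are not independent. Within slides 1, 2 and 3 the difference from muscle was 1.25, 0.73 and 0.98 for miR-106b-5p, and -1.34, -1.30 and -1.15 for miR-92a-3p. It was -0.50, -0.89 and -0.66 for miR-25-3p, 0.50, 0.20 and 0.47 for miR-93-5p, and -0.43, -0.50 and -0.37 for miR-20a-5p. Thus all 5 had the same sign on each slide, from 1, 2 and 4 nucleus accumbens arrays against 4, 5 and 3 muscle arrays. These are the same arrays that gave the calls. The second probe of each of these members, not used above, gave the same sign, with differences of means of 0.78 for miR-106b-5p, 0.47 for miR-93-5p, -0.57 for miR-25-3p, -1.23 for miR-92a-3p and -0.49 for miR-20a-5p.

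The scaling of the arrays moved the differences between brain and muscle. The median difference over all miRNAs tested was 0.21 as given above, -0.14 with either the 75th percentile over all probes or quantile normalization, and 0.33 with either no scaling or scaling by 4 spike-in controls. The numbers of all miRNAs higher and lower were 237 and 164 as given above, 192 and 216 with the 75th percentile over all probes, and 196 and 216 with quantile normalization. Relative to this median, miR-106b-5p lay above it under 5 of 5 scalings, by 0.29 to 0.85. miR-93-5p lay above it under 3 of 5, between -0.26 and 0.24. miR-25-3p, miR-92a-3p and miR-20a-5p lay below it under 5 of 5, by -1.24 to -0.87, -1.86 to -1.47 and -1.03 to -0.50. miR-106b-5p was positive under all 5 but did not pass the test with quantile normalization (0.15, limma adjusted p = 0.173), and miR-20a-5p did not pass with no scaling (-0.17, limma adjusted p = 0.498) or spike-in controls (-0.19, limma adjusted p = 0.471). With spike-in controls miR-25-3p (-0.56, limma adjusted p = 0.0578) and miR-93-5p (0.54, limma adjusted p = 0.0737) did not pass either. Of the 5 members called, miR-92a-3p alone passed under all 5 scalings.

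**Figure D2:**
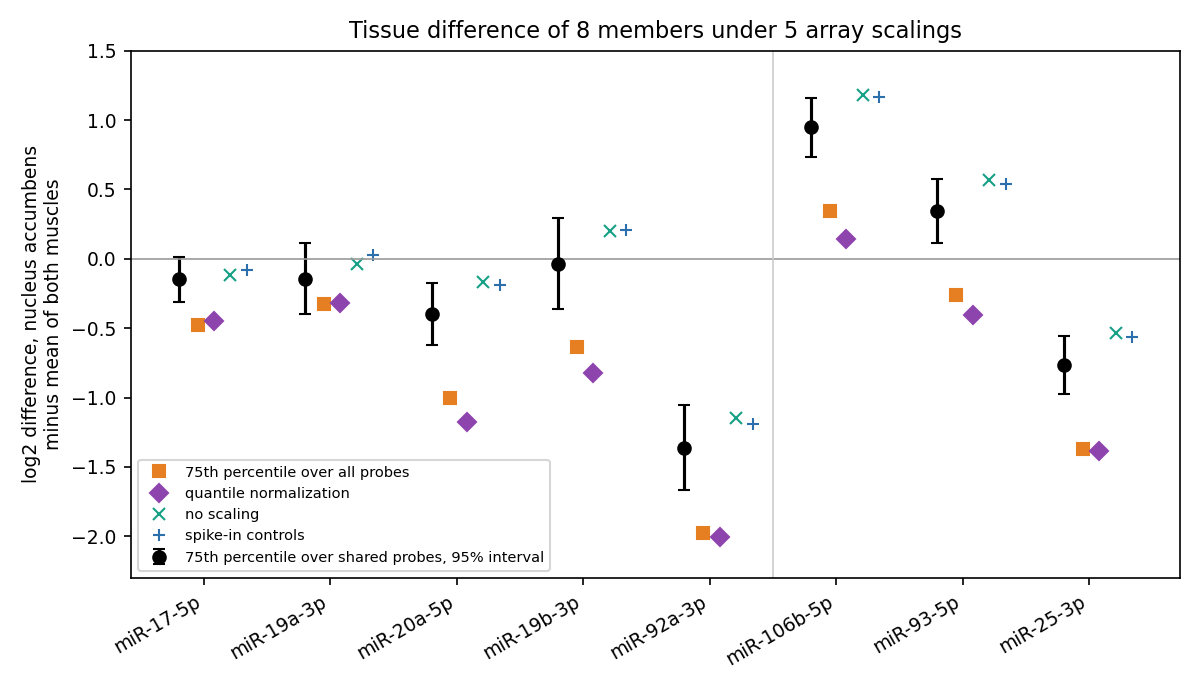
Log2 difference, nucleus accumbens minus the mean of both muscles, for the 8 members tested; black points with 95% intervals use the 75th percentile over probes detected on all arrays, and coloured marks use 4 other scalings of the same arrays. The marks of miR-93-5p fall on both sides of 0, whereas miR-106b-5p stays above 0 and miR-92a-3p and miR-25-3p below it.

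A ratio of 2 members on a single array does not change when the array is divided by 1 factor, as in every scaling here but quantile normalization, so ratios within a cluster were compared next, in the 7 mice with both a nucleus accumbens and a muscle array. The signal of miR-25-3p over miR-106b-5p was -0.13 to 0.45 in the nucleus accumbens and 1.35 to 2.08 in muscle on the log2 scale. It was lower in the nucleus accumbens in 7 of 7 mice, by a mean difference of -1.67 ± 0.25 (SD), which is 3.17-fold. miR-93-5p over miR-106b-5p was lower in 7 of 7 mice, by -0.54 ± 0.22. In miR-17/92a the ratios were taken to miR-20a-5p, a choice made after it was seen that miR-17-5p, the first member, was measured on too few arrays. miR-92a-3p over miR-20a-5p was 0.03 to 0.88 in the nucleus accumbens and 0.87 to 1.87 in muscle, lower in 7 of 7 mice by -0.91 ± 0.31. miR-19b-3p over miR-20a-5p was higher in the nucleus accumbens in 6 of 7 mice, by 0.32 ± 0.27, the exception being mouse 223.

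For the first 3 of these ratios the exact two-sided sign-flip test over 7 mice gave p = 0.015625, the smallest it can give, and an adjusted p of 0.0208 over the 4 ratios. For miR-19b-3p over miR-20a-5p the exact p was 0.03125, adjusted 0.0312, and its adjusted p was 0.0625 without mouse 194, 195, 197, 224, 225 or 227, with mean differences over all single omissions between 0.24 and 0.39. Members of miR-106b-25 therefore differed unequally between the tissues. The signals of miR-92a-3p and miR-19b-3p also include the miR-106a-363 locus, so their ratios cannot show this for miR-17/92a alone. These ratios show an unequal change and not which member of a pair changed. Among the members called, the directions followed neither cluster nor seed throughout. In miR-17/92a miR-92a-3p and miR-20a-5p were both lower. In miR-106b-25 miR-106b-5p and miR-93-5p were both higher, miR-93-5p not under every scaling. miR-25-3p went against these members of its own cluster and was lower, like miR-92a-3p of its seed. miR-106b-5p and miR-20a-5p, of one seed but different clusters, differed in opposite directions.

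**Figure D3:**
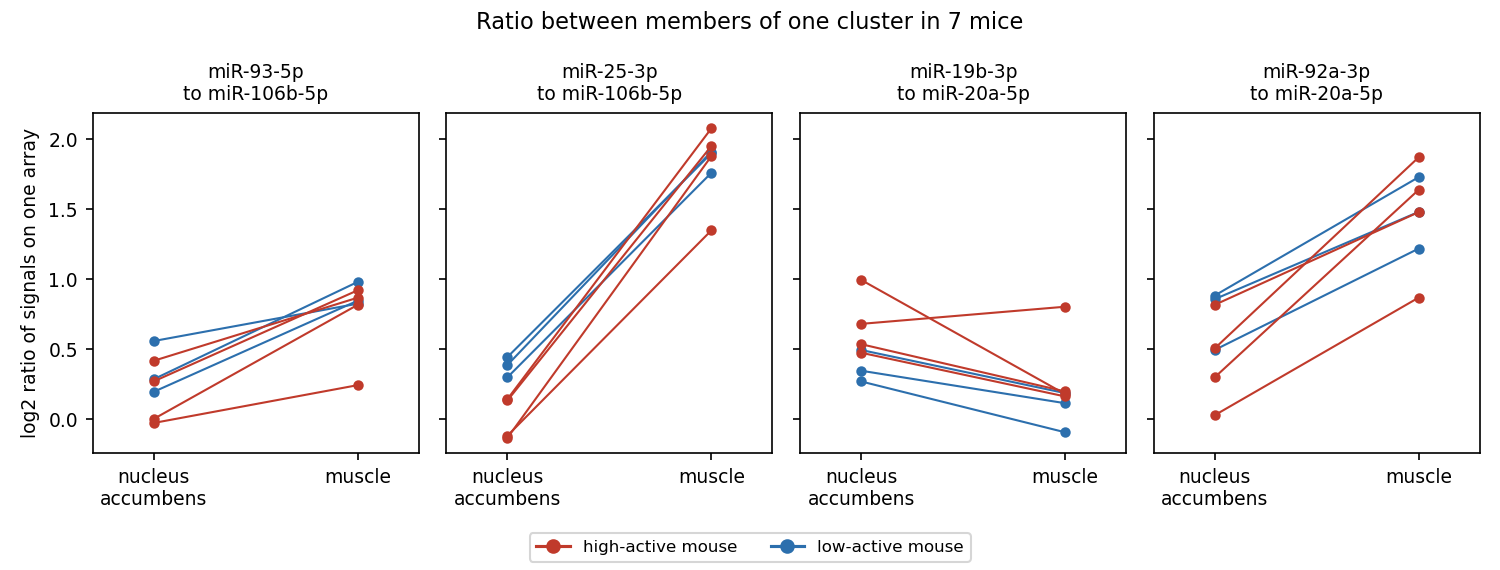
Log2 ratio of the signals of 2 members of a cluster on the same array, in the nucleus accumbens and in muscle (mean over the muscle arrays of a mouse); each line is 1 of 7 mice, red for high-active and blue for low-active. The ratio of miR-25-3p to miR-106b-5p was lower in the nucleus accumbens in every mouse, as was that of miR-92a-3p to miR-20a-5p.

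Some marker miRNAs of other cells also differed between the tissues. The summed signal of 3 vessel miRNAs was 11.6 to 12.0 in the nucleus accumbens and 12.9 to 13.8 in muscle, that of 4 leukocyte miRNAs 9.73 to 10.1 and 10.1 to 10.9, and that of 3 red cell miRNAs 10.8 to 13.6 and 10.5 to 12.8. The vessel ranges did not overlap, whereas those of the leukocyte and red cell miRNAs did. None of the red cell miRNAs passed the limma test against both muscles. Within the nucleus accumbens their sum was 10.8 to 12.2 (median 11.3) in high-active mice and 11.8 to 13.6 (median 12.8) in low-active mice. The part of red cells in the strain differences was not tested. Of the leukocyte miRNAs only miR-223-3p passed, as lower in the nucleus accumbens (-2.46), and miR-150-5p (0.04) and miR-142-3p (0.26) did not. The part of such cells in the differences of miR-92a-3p and miR-25-3p was not tested.

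Close relatives of the members were looked at for the same comparison. Of 18 related miRNAs listed, 17 were on the array and 3 were detected on any array. miR-20b-5p, of the miR-106a-363 cluster and 2 positions away from miR-20a-5p, had a lowest, median and highest signal of 6.35, 6.64 and 7.25 in the nucleus accumbens and 6.77, 7.22 and 7.32 in muscle. It was lower by -0.46 (SE 0.11, limma adjusted p = 0.00129), close to the -0.40 of miR-20a-5p. miR-17-3p, the other strand of the miR-17 hairpin, was lower in the nucleus accumbens by -0.57 (SE 0.092, limma adjusted p = 3.45e-05). Its signal was 4.82 to 5.04 in the nucleus accumbens and 5.12 to 5.97 in muscle. Its unscaled intensities were low and overlapped, at 22.2 to 50.2 and 17.8 to 52.6, and its other probe was well above background on 0 arrays. Other scalings are not given for miR-17-3p or miR-20b-5p. miR-17-3p was the only 1 of 11 opposite strands that was detected. miR-92b-3p, which has the seed of miR-92a-3p but its own gene, was well above background on 7 of 7 nucleus accumbens arrays and 0 of 12 muscle arrays. It was at least 1.11-fold higher in the nucleus accumbens. This bound sets the mean of the bright arrays against the lowest signal well above background on the dim ones. No test is given, as all its muscle values were at the floor. Its nucleus accumbens signal was itself low, with a mean of 4.87 against the floor of 4.41 and unscaled intensities of 30.7 to 38.2. None of its other probes was well above background on any array. Within these limits its direction was opposite to that of miR-92a-3p:
mmu-miR-92a-3p: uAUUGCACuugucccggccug
mmu-miR-92b-3p: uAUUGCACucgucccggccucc
The pair is shown because its sequences differed at 2 of the 21 positions compared while their tissue differences had opposite signs.

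Among the 177 other miRNAs well above background on all 19 arrays, those whose 6 group means were most like the mean profile of each cluster were named by the root mean square of the difference after centring. For the 3 measured members of miR-17/92a these were miR-26b-5p (0.091), miR-697 (0.13), miR-30e-3p (0.14), miR-1904 (0.14) and miR-21a-5p (0.15). For miR-106b-25 they were let-7d-5p (0.088), let-7b-5p (0.095), miR-345-5p (0.096), miR-494-3p (0.12) and miR-99a-5p (0.12). The members of miR-106b-25 themselves lay 0.32 to 0.83 from each other. The 3 measured members of miR-17/92a lay 0.25 to 0.68 apart, so neither mean profile stands for each member. The nearest of all to a single member was miR-20b-5p, 0.039 from miR-20a-5p. Between members, miR-25-3p was 0.83 from miR-106b-5p of its own cluster while its nearest members were miR-20a-5p (0.21), of another seed, and miR-92a-3p (0.30), of its own seed, both from the other cluster. All these distances are descriptions over the same 6 groups.

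The soleus and the EDL were compared next. None of the 8 members tested differed between the slow and the fast muscle (limma, adjusted p under 0.05), against 17.2% of all 483 miRNAs. At an unadjusted p under 0.05 also 0 members passed, against 127 of the 483 miRNAs. The median difference was -0.08 over the members. The muscles thus did not differ detectably for any member with 6 arrays each. Without the EDL of low-active mouse 195, which had the fewest miRNAs detected, 1 member passed: miR-17-5p, with values mostly near the floor.

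The comparison that the study was designed for, between the strains, was made within each tissue with arrays scaled within that tissue. None of the members passed the limma test in any tissue: 0 of 7 in the nucleus accumbens, against 6.91% of 391 miRNAs, 0 of 6 in the soleus, against 1.19% of 335, and 0 of 8 in the EDL, against 0.303% of 330. At an unadjusted p under 0.05 the counts of members were 1, 0 and 0, against 77 of 391, 55 of 335 and 24 of 330 miRNAs. With 2 to 4 mice in a group, only large differences could be seen.

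The member that passed unadjusted was miR-19b-3p in the nucleus accumbens. On the scale within the tissue, its signal was 8.96, 8.43, 8.34 and 8.53 in high-active mice 223, 224, 225 and 227, and 7.95, 8.04 and 8.19 in low-active mice 194, 195 and 197. Every high-active value lay above every low-active value, and the difference was 0.50 (SE 0.17, 95% interval 0.10 to 0.91, limma adjusted p = 0.155). Within slides 2 and 3 it was 0.30 and 0.45, from 1 or 3 high-active arrays against 1 low-active array. In the soleus it was 0.34 (95% interval -0.51 to 1.19, limma adjusted p = 0.660), with 8.87, 7.89, 7.73 and 8.15 in high-active mice 223, 224, 225 and 227, and 8.06 and 7.59 in low-active mice 194 and 195. In the EDL it was 0.46 (95% interval -0.23 to 1.14, limma adjusted p = 0.704), with 8.63 and 7.90 in high-active mice 225 and 227, and 7.99, 7.56, 7.59 and 8.07 in low-active mice 194, 195, 196 and 197. In both muscles the strains overlapped. Within slides it was 0.14 and -0.03 in the soleus (slides 1 and 2), and 0.34 and 0.55 in the EDL (slides 1 and 3).

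The highest miR-19b-3p values in each tissue, those of the nucleus accumbens and soleus of mouse 223 and of the EDL of mouse 225, were all from arrays of slide 3. On the same 3 arrays miR-19a-3p, which differs from it at 1 position, stood above the floor, at 4.54, 5.31 and 5.18, and it was at the floor on the other 16. Slide 3 also held low-active arrays without such values (8.03 in the nucleus accumbens and 8.11 in the EDL of mouse 197, scaled over all arrays). Whether the slide had a part in the strain difference of miR-19b-3p was not tested beyond the values within slides and a fit with the slide as a block. That fit was among 18 alternatives for the nucleus accumbens, over which the difference was 0.36 to 0.89. None of the 18 passed (limma adjusted p between 0.0883 and 0.494).

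For the other 5 measured members the strain differences were smaller. In the nucleus accumbens they were 0.20 for miR-106b-5p (95% interval -0.20 to 0.60), 0.02 for miR-93-5p (-0.38 to 0.42), -0.17 for miR-25-3p (-0.56 to 0.23), -0.13 for miR-92a-3p (-0.68 to 0.42) and 0.20 for miR-20a-5p (-0.27 to 0.67). In the soleus they lay between 0.02 and 0.11, and in the EDL between 0.01 and 0.27. All of these intervals held 0, and each of those in the 3 tissues reached 0.40 or more in at least 1 direction on the log2 scale, the least far-reaching being that of miR-20a-5p in the soleus (-0.32 to 0.40).

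**Figure D4:**
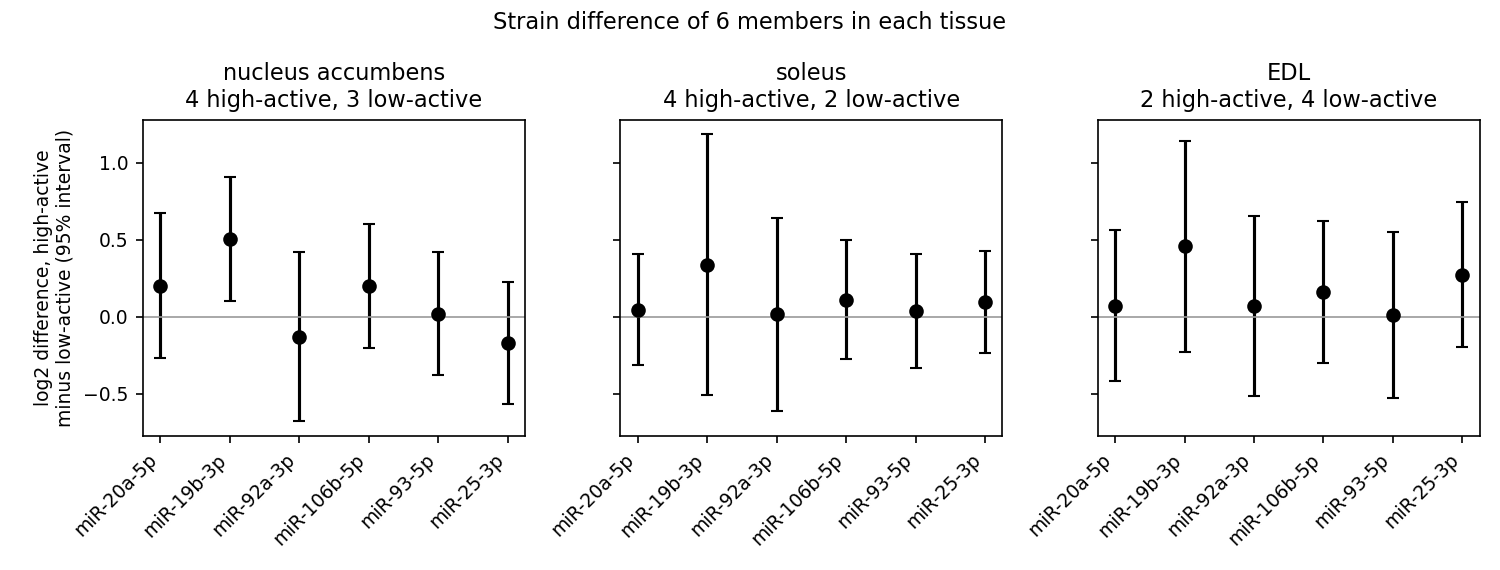
Log2 difference, high-active minus low-active, of the 6 measured members in each tissue, with 95% intervals from limma; the numbers of mice are given above each panel. The interval of miR-19b-3p in the nucleus accumbens, 0.10 to 0.91, is the only 1 of 18 that leaves out 0, before adjustment.

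Whether the strain difference itself differed between brain and muscle was tested in the fit over all arrays. None of the 8 members passed (limma, adjusted p under 0.05), against 8.90% of 483 miRNAs. At an unadjusted p under 0.05 also 0 members passed, against 113 of the 483 miRNAs. The tissue differences were of the same sign in both strains for the 5 members called, and passed in both for all but miR-93-5p, which did not pass in low-active mice. In high-active and low-active mice the difference was 0.97 and 0.93 for miR-106b-5p, -0.95 and -0.58 for miR-25-3p, and -1.45 and -1.27 for miR-92a-3p, each with a limma adjusted p of at most 0.00186. It was -0.34 and -0.46 for miR-20a-5p (limma adjusted p = 0.044 and 0.0132), and 0.33 and 0.36 for miR-93-5p (limma adjusted p = 0.0499 and 0.0550).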

How the data were processed

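The scanner files, deposited by the authors for 19 arrays, held spot intensity values from Feature Extraction 10.7.1.1, already background-subtracted per the file headers. The table of log2 values deposited by the authors was centred within tissues and served only as an alternative for the strain differences. Per the methods, uneven arrays had been dismissed by the authors before deposit.

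Control and outlier spots (4.04 to 7.03% of spots) were left out and spots were averaged per probe. Each array was divided by the 75th percentile of probes detected on all arrays compared (328 probes over all 19 arrays; 594, 456 and 417 within the nucleus accumbens, soleus and EDL), floored at the median of the lowest detected signals, and log2 transformed. The brightest probe stood for each miRNA. miRNAs detected on at least 2 arrays, or 3 within the nucleus accumbens, were tested with limma 3.58.1 in R 4.3.3, with Benjamini-Hochberg adjustment. Across tissues the mouse was a random block (correlation 0.0937), as mouse numbers in the labels pair the tissues. Deviations from the group means had a median correlation of 0.117 over 15 same-mouse pairs (-0.668 to 0.540). Over 43 other pairs of the same strain it was -0.035. With this spread the correlations do not settle the pairing, which rests on the labels. The number of arrays limits the precision.

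Members, lists and the genes named were chosen with earlier results of these data known. The named miRNAs are the members, the listed relatives, and the 5 nearest profiles of each cluster. Alternatives were other scalings, backgrounds, probe summaries, floors and blocks, and each array left out. The normexp alternative used median spot signals, and the spike-in scaling the 4 spike-ins with signal. The procedure was tested on simulated data.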

Additional observations from a re-analysis of the deposited data

Results flagged for a closer look

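In 18 sets of 4 arrays (6 measured members in the 3 groups of 4), 2 had an array apart from the others by Dixon's ratio of gap to range, for which chance gives about 1 in 20. miR-106b-5p in the nucleus accumbens of high-active mice had a ratio of 0.848: mouse 223 was highest at 8.89 and the next was 8.39. miR-92a-3p in the same group had a ratio of 0.857: mouse 224 was lowest at 7.58 and the next was 8.20. Leaving out any single array kept the tissue difference of miR-106b-5p between 0.86 and 1.03 and that of miR-92a-3p between -1.47 and -1.28.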

How the results depend on the processing

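The precision is limited by 2 to 4 mice per group, by 3 members near background and by the lack of a scaling common to brain and muscle. Of the alternatives for single members other than leaving out single arrays, 8 of 119 turned the direction against both muscles, 2 of 60 against the soleus and 2 of 60 against the EDL. For the strain differences, none of which was called, they were 6 of 66, 20 of 66 and 10 of 66 in the nucleus accumbens, soleus and EDL. The cause of these changes was not tested.

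Against both muscles, the soleus and the EDL, miR-93-5p was -0.26, -0.18 and -0.35 with the 75th percentile over all probes and -0.40, -0.43 and -0.38 with quantile normalization. miR-19b-3p against both muscles was 0.20 with no scaling, 0.21 with spike-in controls, 0.037 with the mean over all probes, 0.10 without slide 2, and -0.14 to 0.047 with single arrays left out. miR-19a-3p was 0.027 with spike-in controls, and miR-17-5p 1.95 with the software's own signal per miRNA. With spike-in controls 2 members passed in each of the 3 comparisons (1 higher, 1 lower). With no scaling 3 passed against the soleus and 3 against the EDL, and with the 75th percentile over all probes 3 against the soleus, 0 of them higher. Chosen after seeing the data, leaving out slides gave 0.23 (limma adjusted p = 0.0947) and 0.27 (limma adjusted p = 0.125) for miR-93-5p without slides 1 and 3, and -0.33 (limma adjusted p = 0.0905) for miR-20a-5p without slide 2, while miR-17-5p passed without slide 1 (-0.40, limma adjusted p = 0.000991). miR-93-5p also did not pass against both muscles with the software's own signal (0.26, limma adjusted p = 0.0672). With the mouse as a fixed replicate block and with no replicate block, 5 members passed against both muscles, as in the paired fit used, and 391 and 399 miRNAs in all; without the block 4 passed against the EDL, miR-93-5p being lost (0.30, limma adjusted p = 0.0506). No other member call of the tissue comparisons changed with the replicate block.

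The ratios with the EDL alone as muscle were -0.59 for miR-93-5p and -1.69 for miR-25-3p over miR-106b-5p, and 0.19 for miR-19b-3p and -0.84 for miR-92a-3p over miR-20a-5p. With 5 mice the exact test cannot go below 0.0625. With the soleus alone miR-19b-3p over miR-20a-5p was 0.42, and with single mice left out 0.24 to 0.39.

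The strain differences of single members that turned direction were as follows, in log2. In the nucleus accumbens miR-92a-3p and miR-25-3p were 0.090 and 0.051 over all probes and 0.25 and 0.21 with no scaling, and miR-93-5p was -0.0081 with normexp and -0.015 scaled over all 19 arrays. In the soleus with no scaling miR-20a-5p was -0.67, miR-19b-3p -0.37, miR-92a-3p -0.70, miR-106b-5p -0.60, miR-93-5p -0.67 and miR-25-3p -0.62. There miR-20a-5p, miR-92a-3p and miR-93-5p were -0.069, -0.15 and -0.15 with quantile normalization, -0.096, -0.084 and -0.059 with the software's signal (miR-106b-5p -0.017), -0.014, -0.043 and -0.020 scaled over all 19 arrays, and -0.039, -0.027 and -0.0023 in the deposited table, and miR-20a-5p was -0.0039 with slide as a block. In the EDL miR-20a-5p, miR-92a-3p and miR-93-5p were -0.10, -0.074 and -0.14 with the software's signal and -0.031, -0.0017 and -0.072 in the deposited table, miR-92a-3p and miR-93-5p were -0.040 and -0.033 with quantile normalization, and miR-93-5p was -0.018 with normexp and -0.0046 with the mean over all probes. With single arrays left out, miR-92a-3p and miR-93-5p were -0.25 to 0.060 and -0.028 to 0.15 in the nucleus accumbens. In the soleus miR-20a-5p was -0.073 to 0.14, miR-92a-3p -0.16 to 0.11, miR-106b-5p -0.044 to 0.18, miR-93-5p -0.092 to 0.12 and miR-25-3p -0.0090 to 0.14. In the EDL miR-20a-5p was -0.17 to 0.18, miR-92a-3p -0.16 to 0.26, miR-106b-5p -0.031 to 0.24 and miR-93-5p -0.24 to 0.13.

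Counts of all miRNAs past the test also moved. Between soleus and EDL they were 51 with normexp, 31 with spike-in controls, 55 with the software's signal, and 57 to 128 with single arrays left out (128 without the EDL of low-active mouse 195, with 0 to 1 member). For the strain difference between brain and muscle they were 24 over all probes, 14 with a floor at 1, 0 with normexp, 2 with spike-in controls, 23 with the software's signal, and 32 to 90 with single arrays left out (90 without the same array). For the strains in the nucleus accumbens they were 12 in the deposited table, 4 with no scaling, 10 with normexp, 16 with quantile normalization, 13 with the software's signal, 13 with slide as a block, and 8 to 31 with single arrays left out. In the soleus they were 1 over all probes, 22 in the deposited table, 2 with the mean over all probes, 52 with no scaling, 1 with normexp, 16 with the software's signal, 1 with slide as a block, and 0 to 6. In the EDL they were 3 over all probes, 9 in the deposited table, 2 with a floor at 1, 2 with no scaling, 0 with normexp, 2 with quantile normalization, 4 with the software's signal, 2 with slide as a block, and 0 to 4.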
